A study of Homo sapiens with 8 samples.

Results

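The comparison described here set the double-control cultures of a transfection experiment in HepG2, a human hepatocellular carcinoma cell line, against the mean of the 3 groups that received at least one active RNA. All 8 libraries of the series entered it, 2 of them as controls and 6 as active libraries. The genes of interest were those that differed from the controls in the same direction in each of the 3 active groups. The table lists 26716 genes, of which 17715 passed a filter on low counts and 5160 met that rule.

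The 4 groups each held 2 libraries of poly(A) RNA, read as single ends of 50 bases, from cells transfected for 72 h. NC received a control mimic at 1 nM and a control siRNA at 30 nM. The miR-552-3p group received the miR-552-3p mimic at 1 nM with the control siRNA at 30 nM. The siIPO8-NC group received importin8 siRNA at 30 nM with the control mimic at 1 nM. The siIPO8-miR-552-3p group received the mimic at 1 nM and importin8 siRNA at 30 nM together. Values of these active groups are given as those with the mimic, with the siRNA and with both RNAs. A value after ± is the SD of the 2 libraries of a group. All 4 groups therefore carried 1 mimic-type RNA and 1 siRNA-type RNA, and no untransfected culture is among them. The labels do not say whether the 2 libraries of a group came from separate cultures, so each p-value measures only the spread between these libraries. The series was titled for 2 nuclear receptors, LXR and FXR, and for the handling of lipid and sugar by liver cells.

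A microRNA mimic is a synthetic duplex whose guide strand pairs with messenger RNAs mainly through its seed, whereas an siRNA directs cleavage of a transcript to which it is fully complementary. Short duplexes of either kind can also meet the cell's sensors of foreign RNA, and transfection itself can engage stress pathways such as the integrated stress response and the heat shock response. HepG2 cells keep many hepatocyte functions, among them secretion of plasma proteins and synthesis of cholesterol and fatty acids. The mature sequence of the active mimic's microRNA is shown because it is what separates the mimic from its control. It is given by RefSeq (GRCh38.p14, chr1:34669614-34669634, minus strand), 5′ to 3′, with the seed at bases 2 to 8 in capitals.

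hsa-miR-552-3p: aACAGGUGacugguuagacaa

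IPO8, the siRNA's target, encodes importin 8, a nuclear import receptor also linked to Argonaute proteins (chromosome 12, 30628988 to 30695986, minus strand, GRCh38). It stood at 34.7 and 33.3 CPM (the count scaled to the size of its library) in NC, 25.4 and 24.6 with the mimic, 11.3 and 11.5 with the siRNA and 7.65 and 8.3 with both RNAs. The 4 siRNA libraries were lowest and both NC libraries highest, with no overlap between groups. IPO8 was thus below NC in all 3 groups, also where no importin8 siRNA was given: the log2 difference of miR-552-3p from NC was -0.44 (edgeR quasi-likelihood test, adjusted p = 0.00083). Without NC the mimic also lowered it within the siRNA arm, by a log2 difference of -0.52 (adjusted p = 0.0022).

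The mean of the active groups differed from NC at 10434 genes (58.9% of those tested), at an adjusted p under 0.05. Of these 5198 were higher (29.3%) and 5236 lower (29.6%). Separately, 58.4% of tested genes differed from NC with the mimic, 47.0% with the siRNA and 56.3% with both RNAs. These 3 comparisons share the 2 NC libraries, so a property of those libraries enters each of them. The same direction in all 3 was found for 2701 higher genes (15.2% of tested genes) and 2459 lower genes (13.9%). HSPBP1, with 0.0499 as the largest of its 3 adjusted p-values, was just inside that rule, and RABGGTA, with 0.0501, just outside. Among the 5160 genes, 1362 (7.69% of tested genes) were at least 2-fold from NC in each group, of which 469 (2.65%) were higher and 893 (5.04%) lower. Both NC libraries lay outside the range of the 6 active libraries in all 1362, as in 45.6% of all tested genes, but the 1362 were chosen on the same values, so this adds no evidence.

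Whether these genes mark a response shared by any active RNA or a state of the NC cultures cannot be told apart in this design, because every contrast uses the same NC libraries. Several features of the libraries moved with it. The most abundant gene, an unnamed prediction, took 11.27 and 11.6% of counts in NC and 6.9 to 8.92% in the active libraries. Ribosomal protein genes took 2.64 to 3.11% of counts in NC and 3.35 to 3.96% elsewhere. Among 13588 genes with an implied transcript length, the median log2 difference was 0.15 in the shortest of 4 equal classes of length and -0.10 in the longest. The 2 NC libraries also differed most from each other, with a chi-square per degree of freedom of 9.83 against 4.31 to 7.23 in the other groups. The part of these features in the gene results was not tested.

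The genes farthest above NC in every active group, among those with a usual name and at least 100 counts on average, were HSPA6, ADH4, ANKRD1, CTGF, KRT37, IGFBP1, HAL, SLC16A6, TCIM, AGR2, ESAM and CYR61. Those farthest below were GLP2R, SLC6A12, PTGS1, RANBP3L, ETNPPL, AQP6, CDH16, ANXA13, SLC4A3, C7, PGC and SLC5A3. Separation of both NC libraries from the 6 others was part of the rule that named them. The call of ESAM, an endothelial adhesion molecule, was lost without NC replicate 1, without NC replicate 2 and with limma-voom.

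**Figure D1:**
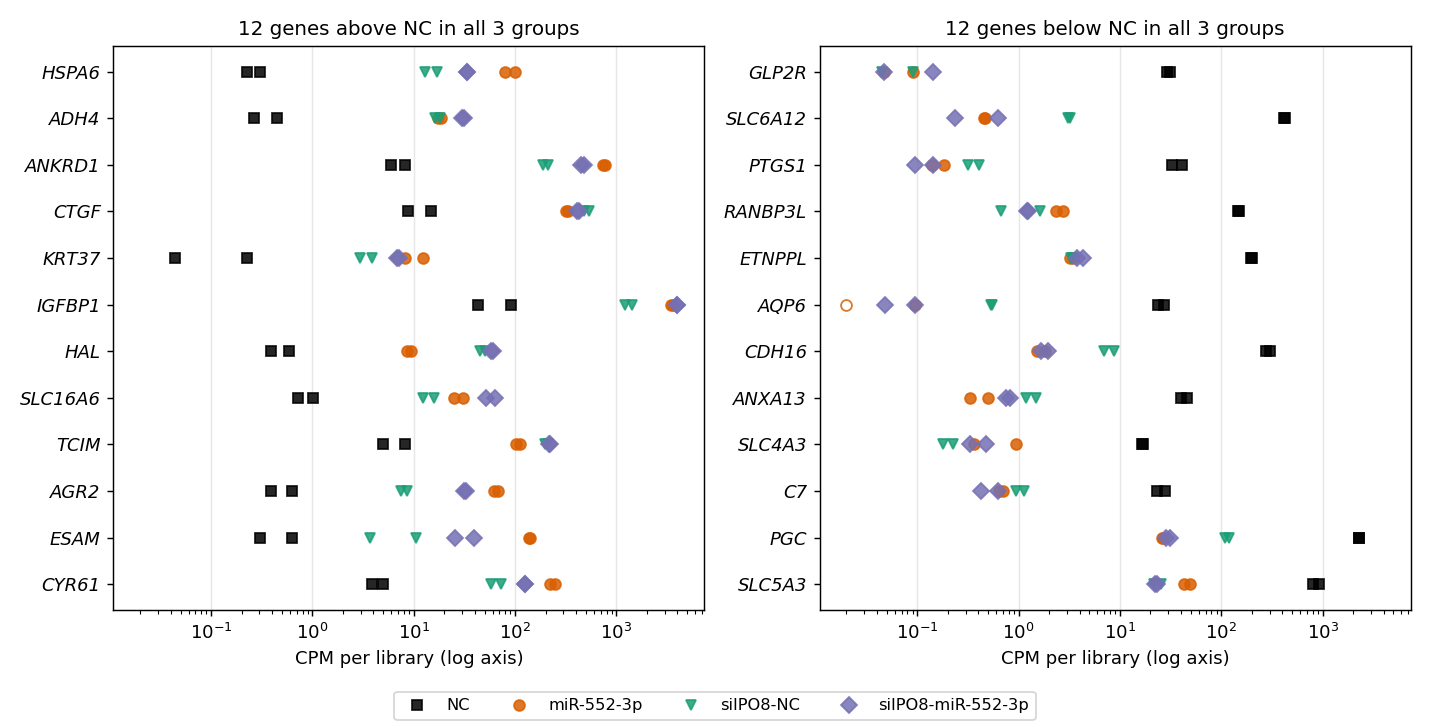
Level of the 12 genes farthest above NC (left) and the 12 farthest below it (right) in each of the 8 libraries, in CPM on a log axis; each point is 1 library, and the open symbol marks a library with 0 counts, drawn at the left edge of its row. The black squares of NC stand apart in every row because the rule for naming these genes required it; the spread among the coloured symbols shows how the active groups differ, from close together (ETNPPL) to widely graded (ESAM).

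IGFBP1, a secreted binder of insulin-like growth factors that liver cells make under fasting and stress, was the most abundant of the higher set. It measured 91.9 and 43.0 CPM in NC, 3602 and 3483 with the mimic, 1417 and 1204 with the siRNA and 3939 and 4003 with both RNAs. The common log2 difference, the mean of the 3 active group means minus NC, was 5.29 (SE 0.37, adjusted p = 6.6e-05). ADH4, a class II alcohol dehydrogenase of hepatocytes, had 0.45 and 0.263 CPM in NC and 16.1 to 31.4 in the active libraries. HAL, the first enzyme of histidine breakdown, rose least with the mimic alone (8.98 ± 0.57 CPM, SD, n = 2) and most with both RNAs (58.8 ± 1.8), from 0.49 ± 0.135 in NC. For these genes NC was near the bottom of the range: ADH4 had 16 counts in both NC libraries together, and its ratio of mean CPM was 61.4 with a 95% counting interval of 37.8 to 107. HSPA6 had 12 such counts and KRT37, a keratin whose close relatives can share reads, had 6. Such intervals are exact Poisson bounds on the NC counts and cover counting error only.

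GLP2R, the receptor for the intestinal hormone GLP-2, was the lower gene farthest from NC in its nearest group, while SLC6A12 had the larger common difference (-8.93 against -8.50). GLP2R stood at 28.9 and 30.9 CPM in NC and at 0.0449 to 0.144 CPM elsewhere, which is 1 to 3 counts in each of the 6 active libraries. Its ratio of NC to active mean CPM was 386, with a counting interval of 210 to 805. PTGS1, the constitutive cyclooxygenase, measured 32.4 and 40.9 CPM in NC and 0.0949 to 0.405 in the active libraries. PGC, the gastric protease precursor progastricsin, was among the more abundant transcripts of NC at 2287 ± 32.7 CPM. It was at 26.3 ± 0.38 CPM with the mimic, 115 ± 6.9 with the siRNA and 29.9 ± 1.95 with both RNAs (common log2 difference -5.67, SE 0.06, adjusted p = 4.7e-12). CDH16, the kidney-type cadherin, followed the same order, with 274 and 303 CPM in NC, 7 and 8.81 with the siRNA and 1.51 to 1.97 in the 4 mimic libraries. For PGC and CDH16 the 4 libraries with the mimic were the lowest and the siIPO8-NC libraries lay between them and NC.

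YAP and TAZ are transcriptional coactivators that act through TEAD factors when cells spread or the actin skeleton is under tension, and CTGF, CYR61 and ANKRD1 are their standard target genes. Of 25 tested genes of the YAP-TEAD list, 15 were higher than NC in all 3 groups and 1 was lower, with a median common log2 difference of 0.92, where the median over all tested genes was -0.01. CTGF, a matricellular protein, stood at 14.9 and 8.72 CPM in NC, 333 and 316 with the mimic, 534 and 474 with the siRNA and 408 and 430 with both RNAs. The 6 active libraries were all more than 20-fold above NC and did not overlap with it, and the common log2 difference was 5.11 (SE 0.20, adjusted p = 5.8e-07). The active groups also differed among themselves (F test, adjusted p = 0.038), with the mimic below the siRNA by a log2 difference of -0.63 (adjusted p = 0.015). CYR61, a related matricellular protein, had 4.95 and 3.86 CPM in NC and 57.6 to 246 in the active libraries. ANKRD1, an ankyrin-repeat protein of muscle and stressed epithelium, had 8.19 and 5.92 CPM in NC, 771 and 742 with the mimic, 211 and 187 with the siRNA and 479 and 452 with both RNAs.

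Other targets were graded among the active groups. AXL, a receptor tyrosine kinase, was at 3.48 ± 0.15 CPM in NC, 8.85 ± 1.06 with the siRNA, 44.4 ± 3.93 with both RNAs and 133 ± 2.62 with the mimic. IGFBP3, another binder of insulin-like growth factors, went from 0.869 ± 0.299 CPM in NC to 3.21 ± 1.23 with the siRNA and 19.2 ± 2.83 with the mimic. Among regulators of the pathway, TEAD4 was higher in all 3, with a common log2 difference of 0.64 (adjusted p = 2.2e-06), as was LATS2, a kinase that restrains YAP (0.65). TEAD1 and WWTR1, which encodes TAZ, had values of -0.30 and -0.17 and were not called in all 3. In the mean over the active groups 17 members of this list, targets and regulators together, were higher and 4 were lower. The single member lower in all 3 was AMOTL2, an angiomotin. It was at 74.8 and 77.6 CPM in NC and 30.6 to 32.8 in the 6 active libraries (common log2 difference -1.27, SE 0.05, adjusted p = 2.0e-08).

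As CTGF and ANKRD1 were the members of this list farthest from NC, the 250 bases before their RefSeq start sites are shown (GRCh38.p14). They lie at chr6:131951373-131951622 and chr10:90921088-90921337, both on the minus strand, and are written 5′ to 3′ toward the gene. Capitals mark GGAATG, the core bound by TEAD factors, which was searched on both strands.

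CTGF: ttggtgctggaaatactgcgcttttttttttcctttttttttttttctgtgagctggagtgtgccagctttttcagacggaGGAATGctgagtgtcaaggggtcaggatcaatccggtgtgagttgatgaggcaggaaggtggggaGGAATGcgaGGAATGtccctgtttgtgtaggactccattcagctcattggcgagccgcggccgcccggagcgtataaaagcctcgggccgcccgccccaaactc
ANKRD1: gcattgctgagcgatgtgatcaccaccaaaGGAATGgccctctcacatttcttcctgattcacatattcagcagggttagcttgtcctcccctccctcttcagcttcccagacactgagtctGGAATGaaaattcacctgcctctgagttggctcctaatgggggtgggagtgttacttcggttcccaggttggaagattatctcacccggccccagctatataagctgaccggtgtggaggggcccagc

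The CTGF window held 3 matches, which begin 169, 104 and 95 bases before the start, and the ANKRD1 window held 2, at 220 and 128 bases. Over windows of 300 bases (250 before and 50 after the start), matched by symbol or identifier for 71.6% of tested genes, 11.3% of 12682 promoters held the motif. Among promoters of the YAP-TEAD list 8 of 18 (44.4%) held it, and 5 of 10 among those of members higher in all 3. This list and those of the motifs below were drawn up from known pathway members, so such shares are no result of these data. A match is a description of the letters and was not tested as a binding site.

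Genes of the actin skeleton that depend on the factor SRF gave a similar count, with 16 of 27 tested members higher in all 3 groups, 1 lower and a median of 1.03. ACTB, cytoplasmic beta-actin, was at 2171 and 1978 CPM in NC, 4538 and 4651 with the mimic, 4090 and 3864 with the siRNA and 4669 and 4708 with both RNAs. The active groups did not differ among themselves by the F test over the 3 groups (adjusted p = 0.077), and all stood above NC (common log2 difference 1.09, SE 0.08, adjusted p = 1.0e-06). CALD1, the actin-binding caldesmon, was the most even of the named members, at 231 to 270 CPM in the active libraries against 105 and 93.8 in NC. TAGLN, a calponin-related protein of contractile cells, was graded instead: 0.553 ± 0.272 CPM in NC, 3.7 ± 1.17 with the siRNA, 22.2 ± 0.87 with both RNAs and 112 ± 4.67 with the mimic. LIMA1, which crosslinks actin filaments, was the lower member (-0.93).

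Keratins, the intermediate filaments of epithelia, were higher in all 3 groups for 6 of 10 tested genes, with none lower and a median of 2.87. KRT19, a keratin of bile duct and progenitor cells, stood at 35.3 and 27.3 CPM in NC, 676 and 647 with the mimic, 68.6 and 66.3 with the siRNA and 174 and 170 with both RNAs. All 10 keratins also differed among the active groups, and for KRT19 the mimic alone gave the highest level. Of 25 AP-1 and ERK feedback genes 11 were higher and 1, JUND, was lower, with a median of 0.83. The call of JUND was lost without any 1 of 7 of the 8 libraries and without the filter on low counts. JUN, a subunit of AP-1, had 109 and 79.0 CPM in NC and 256 to 370 in the active libraries. DUSP5, a phosphatase that restrains nuclear ERK, had 4.19 and 2.72 CPM in NC, 24.3 and 18.3 with the siRNA, 76.3 and 67.8 with both RNAs and 191 and 180 with the mimic. AREG, an EGF receptor ligand, spanned the active groups still more widely, from 2.83 CPM with the siRNA to 152 with the mimic, against 1.4 in both NC libraries. ERRFI1, a feedback inhibitor of the EGF receptor, was the opposite case: 212 and 132 CPM in NC, and 902 to 1211 in all active libraries.

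**Figure D2:**
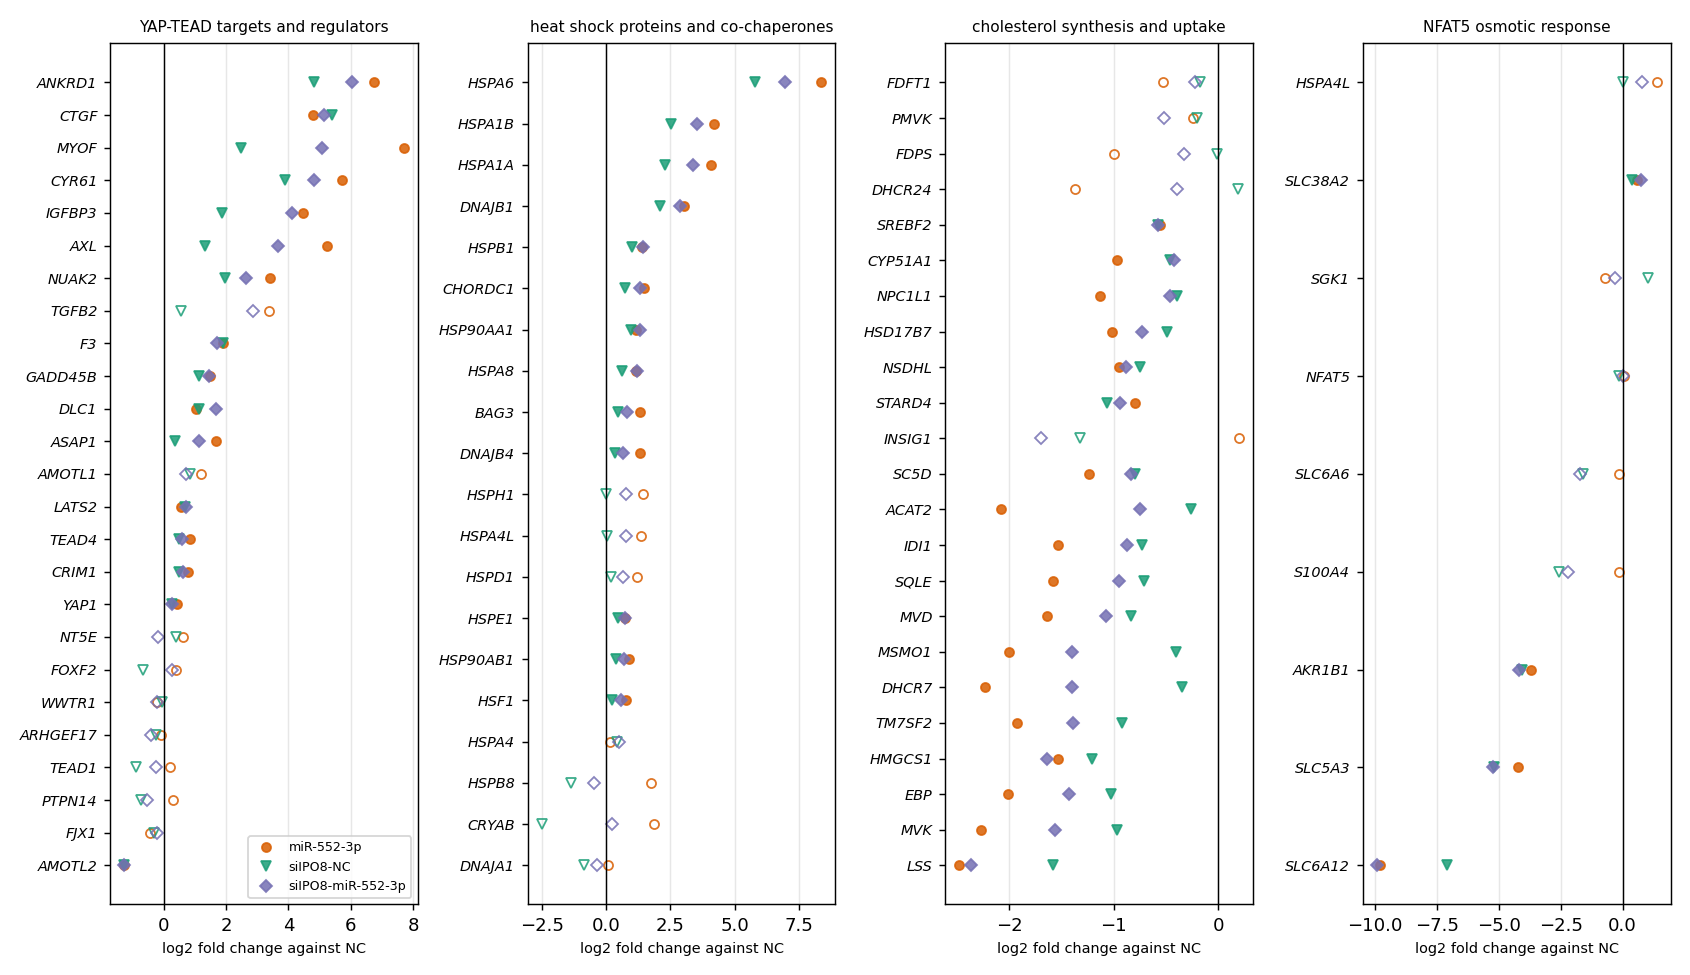
Log2 fold change against NC of tested members of 4 gene lists in miR-552-3p (circles), siIPO8-NC (triangles) and siIPO8-miR-552-3p (diamonds); filled symbols mark genes called the same way in all 3 groups. YAP-TEAD targets and heat shock genes lie mostly to the right of 0, cholesterol genes to the left, and 3 osmotic response genes (SLC6A12, SLC5A3 and AKR1B1) far to the left.

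Heat shock proteins keep other proteins folded, and their inducible forms are switched on by the factor HSF1 when proteins misfold. Of 20 tested members 13 were higher than NC in all 3 groups and none was lower, with a median of 0.76. HSPA6, a strictly inducible Hsp70, stood at 0.225 and 0.307 CPM in NC, 100 and 78.9 with the mimic, 17.0 and 12.9 with the siRNA and 33.5 and 33.8 with both RNAs. HSPA1A, the main inducible Hsp70, was at 147 and 128 CPM in NC, 2492 and 2191 with the mimic, 725 and 633 with the siRNA and 1430 and 1423 with both RNAs. Its neighbour HSPA1B is nearly identical, so reads can be shared between them, and both had the same order of groups. DNAJB1, the Hsp40 partner of Hsp70, rose from 123 ± 15.5 CPM in NC to 1003 ± 82.8 with the mimic, 520 ± 57.6 with the siRNA and 909 ± 11.9 with both RNAs (common log2 difference 2.66, SE 0.11, adjusted p = 2.4e-08).

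HSPA8, the housekeeping Hsp70, had a smaller common log2 difference of 0.99 (SE 0.07, adjusted p = 1.8e-06). Of the cytosolic Hsp90 genes, the inducible HSP90AA1 had one of 1.16 and the constitutive HSP90AB1 one of 0.64. All 20 members differed among the active groups. The small heat shock protein CRYAB went both ways and is not part of the count: it was at 17.3 ± 1.49 CPM in NC, 63.8 ± 7.47 with the mimic, 3.05 ± 0.38 with the siRNA and 20.4 ± 2.58 with both RNAs. With any 1 library left out, 11 to 15 members were higher in all 3.

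The promoter of HSPA6 is shown as that of the gene farthest above NC (GRCh38.p14, chr1:161524290-161524539, plus strand, the 250 bases before the RefSeq start). Capitals mark the heat shock element, 3 alternating GAA and TTC triplets spaced by 2 bases, which was searched on both strands and chosen after the values were seen.

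HSPA6: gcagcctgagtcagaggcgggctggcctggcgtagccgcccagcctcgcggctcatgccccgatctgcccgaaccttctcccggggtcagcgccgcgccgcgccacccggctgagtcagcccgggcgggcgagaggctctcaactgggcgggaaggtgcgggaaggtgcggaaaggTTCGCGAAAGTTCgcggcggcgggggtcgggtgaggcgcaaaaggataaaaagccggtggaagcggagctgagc

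The match begins 74 bases before the start and reads in the opposite orientation. This element was present in 0.331% of the 12682 promoters and in 4 of 18 promoters of the heat shock list, namely those of HSPA6, HSPA8, DNAJA1 and CHORDC1. DNAJA1 was not among the genes higher in all 3 groups (common log2 difference -0.38).

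The integrated stress response slows translation while favouring the factors ATF4 and CHOP, which induce amino acid synthesis, transporters and feedback phosphatases. Of 33 tested genes of this list, 22 were higher than NC in all 3 groups and none was lower, with a median of 1.10. In the mean over the active groups 32 of the 33 were higher. By group, 32 were higher with the mimic, 22 with the siRNA and 32 with both RNAs. In the same order 0, 4 and 1 were lower. PPP1R15A, the regulatory subunit that reverses eIF2 phosphorylation, stood at 42.5 and 27.5 CPM in NC, 376 and 343 with the mimic, 181 and 149 with the siRNA and 304 and 301 with both RNAs. DDIT3, which encodes CHOP, was at 32.4 ± 3.31 CPM in NC, 200 ± 18.2 with the mimic, 75.7 ± 5.36 with the siRNA and 135 ± 4.67 with both RNAs (common log2 difference 1.97, SE 0.08, adjusted p = 3.6e-08). CHAC1, which breaks down glutathione, had 0.81 and 0.614 CPM in NC and 2.88 to 10.3 in the active libraries. ASNS, asparagine synthetase, rose from 36.2 ± 3.1 CPM to 211 ± 9.11, 73.8 ± 10.7 and 199 ± 2.32 with the mimic, the siRNA and both RNAs, in that order.

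In each of these genes siIPO8-NC was the active group nearest to NC. ATF4 mRNA itself was not called in all 3: it was at 351 ± 27 CPM in NC and 350 ± 9.52 with the siRNA, against 496 ± 20.6 with the mimic and 478 ± 4.3 with both RNAs. GDF15, a stress hormone, was the most abundant member, at 417 and 359 CPM in NC and 1103 to 1984 in the active libraries. Chaperones of the endoplasmic reticulum gave a smaller count, with 6 of 19 higher in all 3, none lower and a median of 0.57. With the siRNA their median was 0.08, with 6 higher and 2 lower, against medians of 0.97 with the mimic and 0.83 with both RNAs. HERPUD1, which helps to clear misfolded proteins from that compartment, was at 95.2 ± 7 CPM in NC and 179 ± 17.7 to 490 ± 8.43 in the active groups. HSPA5, its main chaperone BiP, was at 118 ± 16.2 CPM in NC and 126 ± 13.2 with the siRNA (adjusted p = 0.57), and at 530 ± 76.6 and 322 ± 6.11 in the groups with the mimic.

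The promoter of CHAC1 is shown because it held the C/EBP-ATF response element TGATGNAA, the composite site through which ATF4 and CHOP act (GRCh38.p14, chr15:40953221-40953470, plus strand, 250 bases before the RefSeq start). Capitals mark the match, searched on both strands.

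CHAC1: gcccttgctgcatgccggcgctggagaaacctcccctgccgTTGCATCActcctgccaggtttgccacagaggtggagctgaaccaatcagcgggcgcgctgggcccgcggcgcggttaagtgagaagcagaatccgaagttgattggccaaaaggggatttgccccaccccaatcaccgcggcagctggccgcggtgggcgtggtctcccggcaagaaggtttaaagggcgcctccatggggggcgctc

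The match begins 209 bases before the start. The motif was present in 2.07% of the 12682 promoters and in 6 of 27 of this list (ATF3, CHAC1, ASNS, SLC3A2, SLC7A1 and AARS), of which AARS was not called in all 3.

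Cells balance a salty medium by taking up or making small organic solutes, through transporters and enzymes induced by the factor NFAT5. SLC6A12, the betaine transporter BGT1, stood at 426 and 419 CPM in NC, 0.458 and 0.471 with the mimic, 3.09 and 3.19 with the siRNA and 0.625 and 0.237 with both RNAs. The level in the active groups was 0.102 to 0.744% of that in NC. SLC5A3, the myo-inositol transporter, was at 918 and 805 CPM in NC, 42.8 and 49.3 with the mimic, 21.5 and 25.3 with the siRNA and 22.2 and 23.2 with both RNAs. AKR1B1, aldose reductase, which makes sorbitol, was at 1020 and 1038 CPM in NC and 53.6 to 82.4 in the active libraries (common log2 difference -3.98, SE 0.06, adjusted p = 5.0e-11). For all 3 genes each NC library exceeded every active library more than 10-fold.

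Of 9 tested members of this list, these 3 were lower in all 3 groups and 1, SLC38A2, was higher, with a median of -1.15. By group the median was -0.13 with the mimic, -1.61 with the siRNA and -1.70 with both RNAs. In the mean over the active groups 5 were lower and 2 higher. SLC6A6, the taurine transporter, was at 68.9 ± 0.82 CPM in NC and 62.9 ± 2.82 with the mimic (adjusted p = 0.18), but at 22.6 ± 2.36 and 21.2 ± 1.08 in the siRNA groups. NFAT5 mRNA was at 174 ± 15.1 CPM in NC and 159 ± 1.64 to 180 ± 17.8 in the active groups (common log2 difference -0.02, adjusted p = 0.82). The call of SLC38A2, an amino acid transporter, was lost without any 1 of 7 of the 8 libraries and with upper-quartile scaling.

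Double-stranded RNA is sensed in the cytoplasm by RIG-I and MDA5 and by the kinase PKR, whose signals induce interferon-stimulated genes. Of 35 tested members of this list 3 were higher than NC in all 3 groups and 5 lower, with a median of -0.42. Over all tested genes 15.2% were higher and 13.9% lower in all 3, so the lower count was near that share. DDX58, which encodes RIG-I, was lower in the active groups: 41.3 and 41.5 CPM in NC, 18.7 and 18.3 with the mimic, 15.3 and 14.3 with the siRNA and 13.7 and 13.8 with both RNAs. IFI6, an interferon-stimulated mitochondrial protein, had 40.0 and 34.6 CPM in NC and 3.13 to 5.52 elsewhere (common log2 difference -3.19, SE 0.09, adjusted p = 3.2e-09). EIF2AK2, the gene of PKR, was higher, at 58.5 ± 0.25 CPM in NC, 125 ± 3.11 with the mimic, 74.4 ± 0.19 with the siRNA and 83.8 ± 2.18 with both RNAs. The 3 higher calls became 1 without siIPO8-NC replicate 2. The 5 lower calls became 3 without NC replicate 2, without either miR-552-3p library or without siIPO8-NC replicate 1, and 9 with upper-quartile scaling. The summed level of the list was 1049 to 1089 CPM in NC and 961.2 to 1137 in the active libraries.

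The machinery that uses small RNAs had common log2 differences under 1 in size in every tested member of its list. Of 24 genes of RNA interference and mRNA decay 4 were higher in all 3 and 5 lower, and the median was -0.12. The shares over all tested genes were 15.2% higher and 13.9% lower. The 5 lower calls became 3 without miR-552-3p replicate 1 or siIPO8-NC replicate 1. CNOT7, a deadenylase, was at 74.3 and 61.1 CPM in NC and 97.8 to 126 in the active libraries. DICER1, which cuts microRNA precursors, was at 108 ± 11.4 CPM in NC and 66 ± 3.61 to 80.1 ± 3.73 in the active groups (common log2 difference -0.54, SE 0.06, adjusted p = 4.9e-05). AGO2, the slicing Argonaute, was at 40.6 ± 1.55 CPM in NC and 44.8 ± 2.78 with the siRNA (adjusted p = 0.19), and at 92.8 ± 8.59 and 76 ± 2.95 where the mimic was present. Nuclear transport receptors, the family of IPO8, were higher in all 3 for 13 of 26 members and lower for 2, IPO8 itself and IPO13 (-0.63), with a median of 0.43. KPNA2, an importin alpha, had 135 and 117 CPM in NC and 191 to 252 in the active libraries.

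Cholesterol synthesis was the list with most lower genes. Of 26 tested members, 19 were lower than NC in all 3 groups and 1 was higher, with a median of -0.97. LSS, which closes the sterol ring, stood at 204 and 239 CPM in NC, 36.6 and 42.7 with the mimic, 67.2 and 81.3 with the siRNA and 42.7 and 43.2 with both RNAs. HMGCS1, an early enzyme of the route, was at 220 ± 5.29 CPM in NC, 76 ± 4.17 with the mimic, 95.2 ± 1.75 with the siRNA and 70.4 ± 1.27 with both RNAs (common log2 difference -1.46, SE 0.05, adjusted p = 4.8e-09). SREBF2, whose product drives these genes, varied little among the active libraries, at 182 to 197 CPM against 273 and 290 in NC, which is less than 2-fold. The sterol response element CACCCCAC was found in 1 of 19 promoters of this list, against 2.68% of all.

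Among 24 tested genes that make fatty acids and triglycerides, 11 were lower in all 3 and 3 higher, with a median of -0.67. FASN, fatty acid synthase, stood at 682 and 841 CPM in NC, 306 and 339 with the mimic, 505 and 561 with the siRNA and 537 and 531 with both RNAs. SCD, the desaturase that makes oleate, was at 1713 and 1743 CPM in NC and 701 to 1309 in the active libraries. PNPLA3, a lipid droplet enzyme, showed the largest fall of the list: 55.7 ± 6.87 CPM in NC, 6.78 ± 0.39 with the mimic, 30 ± 1.96 with the siRNA and 11.3 ± 0.38 with both RNAs. The 3 higher genes, PLIN2, PLIN4 and CIDEC, encode coat proteins of lipid droplets. CIDEC had 2.57 and 2.76 CPM in NC and 9.38 to 12.8 in the active libraries, and PLIN2 had 633 and 389 against 977 to 1790.

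Genes of the series title gave mixed results. NR1H4, which encodes FXR, was at 73.3 and 74.7 CPM in NC, 27.6 and 27.5 with the mimic, 84.7 and 77.1 with the siRNA and 70.3 and 66.2 with both RNAs. Its common log2 difference was -0.47 (adjusted p = 3.3e-05). It differed from NC with the mimic (-1.43, adjusted p = 8.2e-08), and the other differences were 0.13 (adjusted p = 0.14) and -0.12 (adjusted p = 0.16). NR1H3 and NR1H2, the genes of LXR alpha and beta, had common log2 differences of 0.13 (adjusted p = 0.099) and 0.04 (adjusted p = 0.62). SREBF1, an LXR target that drives fat synthesis, had one of 0.16 (adjusted p = 0.075). ABCA1, the cholesterol exporter that LXR induces, was higher in all 3, at 67.3 and 76.2 CPM in NC and 106 to 161 in the active libraries (0.85, SE 0.08, adjusted p = 5.6e-06). ACACA, which makes malonyl-CoA, was lower in all 3, at 80.6 and 86.1 CPM in NC and 33.9 to 65.9 elsewhere. CYP7A1, which opens the classic route to bile acids, was called higher in all 3, but its 1.31 and 1.8 CPM in NC lay close to the 2.11 and 2.36 of miR-552-3p. That call was lost without any 1 of 7 of the 8 libraries, with DESeq2, limma-voom or upper-quartile scaling, and without the filter on low counts. G6PC, which releases glucose, was called lower (-2.25). Its call was lost without NC replicate 1, without either siIPO8-NC library, with DESeq2 and without the filter on low counts.

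Hepatocyte products moved in both directions, beside shares of 15.2% higher and 13.9% lower in all 3 over all tested genes. Of 33 tested plasma proteins 7 were higher in all 3 and 8 lower, with a median of -0.07. Without siIPO8-NC replicate 2 the lower count was 5. The 3 fibrinogen chains were all among the higher ones: FGB stood at 34.1 and 23.6 CPM in NC and 184 to 391 in the active libraries, FGA at 86.9 and 64.7 against 463 to 1149, and FGG at 162 and 126 against 390 to 863. GC, the vitamin D binding protein, was lower, with 7.56 and 7.23 CPM in NC and 0.135 to 0.45 elsewhere. Among 30 hepatocyte transcription factors and nuclear receptors 3 were higher and 7 lower (4 lower without siIPO8-NC replicate 1). NR5A2, the liver receptor homologue LRH-1, was at 46.5 ± 2.38 CPM in NC and 4.85 ± 0.01 to 8.17 ± 0.08 in the active groups, and GATA4 fell from 163 ± 12 CPM to between 32.9 ± 1.43 and 63.2 ± 1.79. HNF4A, a central factor of hepatocyte identity, was not called in all 3 (-0.07).

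Over all tested genes 15.2% were higher and 13.9% lower in all 3, and the counts here stand beside those shares. Of 29 genes of drug metabolism 7 were higher in all 3 and 4 lower. CYP1A1, a cytochrome induced by the aryl hydrocarbon receptor, was at 68.4 and 66.2 CPM in NC and 6 to 16.7 in the active libraries, while AHR, that receptor's gene, was higher (1.31, SE 0.11, adjusted p = 2.2e-05). CYP3A5 was lower at 48.3 and 52.7 CPM in NC against 3.99 to 5.04. Reads of CYP3A5 can be shared with its close relatives. NFKBIA, the inhibitor of NF-kB, was at 461 and 436 CPM in NC and 77.7 to 153 elsewhere. It was 1 of 6 lower genes, beside 6 higher ones, in a list of 22 NF-kB targets and acute phase proteins. Without NC replicate 1 the lower count was 3. CXCL8, the chemokine interleukin 8, was higher in all 3, from 5.03 ± 0.91 CPM in NC to 13.4 ± 1.34 with the siRNA and 170 ± 18.7 with the mimic. Of 23 genes of glycolysis and glucose uptake 8 were higher in all 3 (5 without siIPO8-NC replicate 1), led by SLC2A2, the liver glucose transporter, and HK2. HK2, an inducible hexokinase, had 142 and 95.1 CPM in NC and 488 to 886 in the active libraries.

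**Figure D3:**
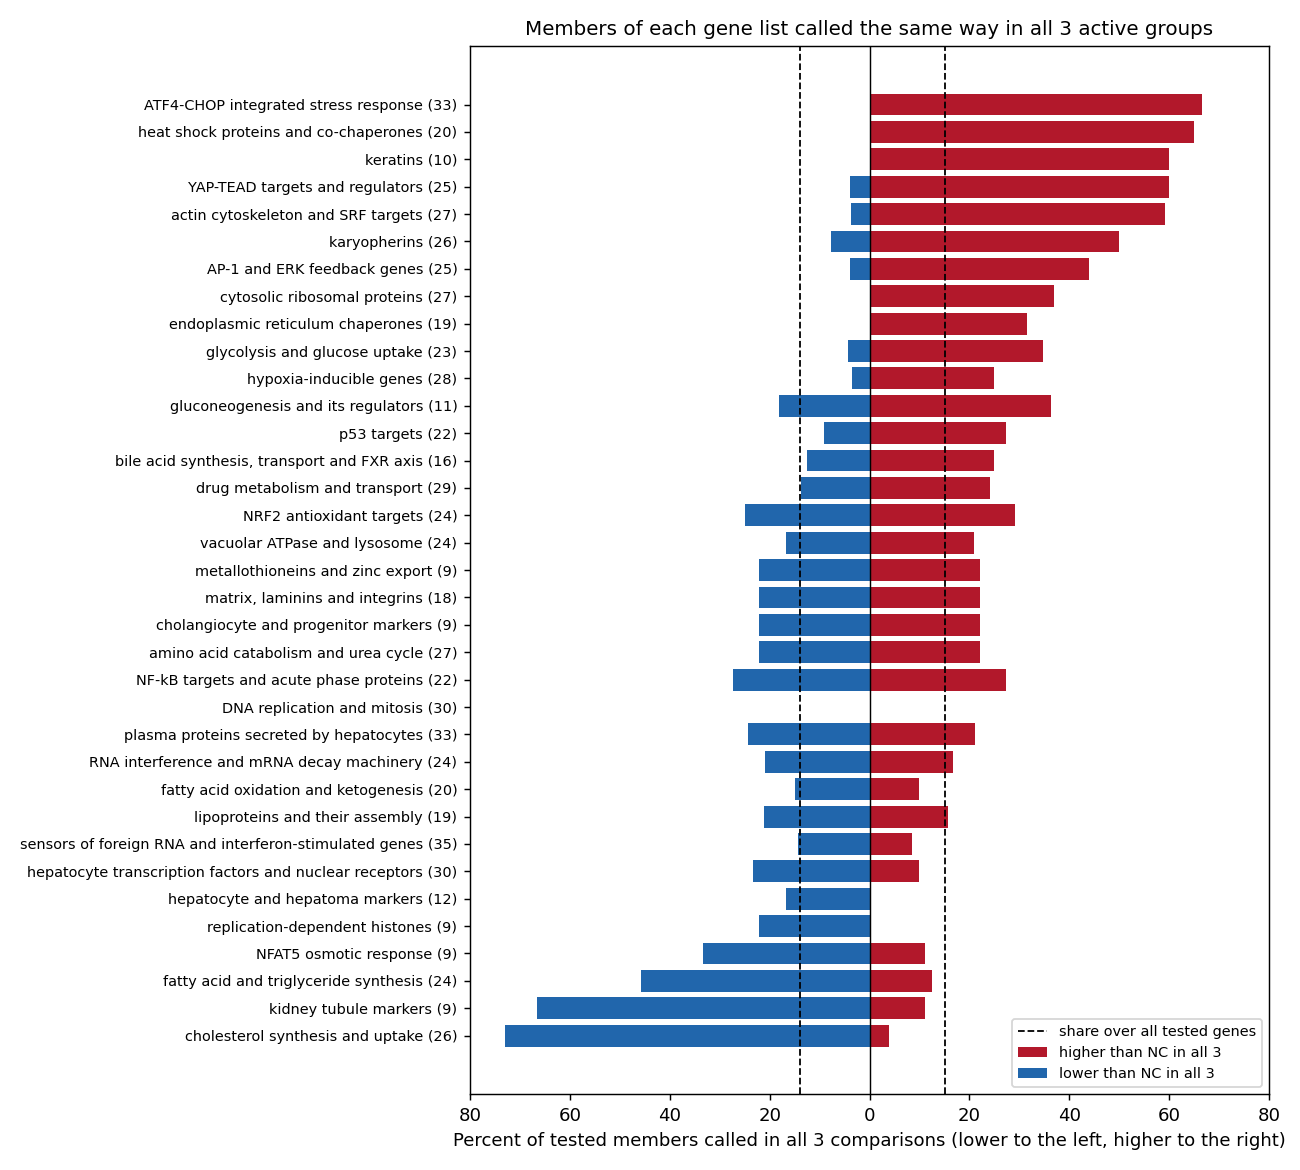
Percent of tested members of each gene list called higher (to the right) or lower (to the left) than NC in all 3 active groups, with the number tested in brackets and lists of at least 9 tested genes shown; dashed lines mark 15.2% and 13.9%, the shares over all tested genes. ATF4-CHOP and heat shock genes have the largest shares to the right, and cholesterol genes the largest to the left.

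Genes of DNA replication and mitosis did not move together in this comparison. None of the 30 tested was called the same way in all 3 by edgeR, DESeq2 or limma-voom, nor at an unadjusted p under 0.05, and their median was -0.01. In the mean over the active groups edgeR called 13 of them higher and 7 lower, and their summed level was 1475 to 1584 CPM in NC, 869.2 to 875.6 with the mimic and 2533 to 2583 with the siRNA. NC thus lay between active groups for this list. Cytosolic ribosomal proteins were higher in all 3 for 10 of 27 members, a count that became 23 without NC replicate 1, 7 without NC replicate 2 or siIPO8-NC replicate 2 and 4 without siIPO8-NC replicate 1. In the mean over the active groups 22 of the 27 were higher and none was lower. Hypoxia-inducible genes gave 7 of 28, which became 18 without NC replicate 1, and in the mean 19 were higher and 1 was lower. Of 7 nuclear-retained long noncoding RNAs 4 were lower in all 3 and none was higher, and in the mean 5 were lower. MALAT1, a component of nuclear speckles, was at 813 and 739 CPM in NC and 261 to 506 in the active libraries.

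The remaining lists had smaller counts, beside shares of 15.2% higher and 13.9% lower over all tested genes. NRF2 antioxidant targets had 7 of 24 higher and 6 lower (3 lower without siIPO8-NC replicate 1), p53 targets 6 of 22 higher and 2 lower (1 without any 1 library of the groups with the mimic, and 4 with upper-quartile scaling), and amino acid breakdown with the urea cycle 6 of 27 each way. Bile acid genes had 4 of 16 higher (2 without siIPO8-NC replicate 1) and 2 lower, gluconeogenesis 4 of 11 and 2 (1 lower without NC replicate 1 or either siIPO8-NC library), lipoproteins 3 of 19 and 4, and fatty acid oxidation 2 of 20 and 3. Without NC replicate 1, 4 genes of fatty acid oxidation were higher. Lysosome and proton pump genes had 5 of 24 higher and 4 lower, matrix and integrin genes 4 of 18 each way and metallothioneins with zinc exporters 2 of 9 each way. The higher count of the last list was 0 without miR-552-3p replicate 1 and 1 without miR-552-3p replicate 2 or either NC library. Of 9 replication-dependent histones 2 were lower and none was higher.

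Markers were used to check the label and to look for other cell types. All libraries carried hepatocyte and hepatoma transcripts at high levels: ALB, the gene of albumin, was at 20794 to 29573 CPM and AFP, alpha-fetoprotein, at 7500 to 13020. Of 12 tested markers of this kind none was higher in all 3 and 2 were lower, beside 15.2% and 13.9% of all tested genes. Kidney tubule markers were lower in all 3 for 6 of 9 tested genes, or 4 to 5 with any 1 library left out, and their summed level was 740.4 to 763.5 CPM in NC and 11.58 to 23.83 in the active libraries. In NC most of that sum was SLC6A12 and CDH16. SLC12A3, the thiazide-sensitive salt transporter, went the other way, from 0.0888 ± 0.0017 CPM (2 counts in each library) in NC to between 1.99 ± 0.81 and 2.86 ± 0.31. PAX8, a defining factor of the kidney lineage, was not called in all 3 (-0.34). PAX2 of the same list was called lower in all 3, a call lost with DESeq2, without NC replicate 2 and without miR-552-3p replicate 2. Gastric and intestinal markers were lower for 4 of 8 and higher for 1, with a sum of 2745 to 2770 CPM in NC and 277.9 to 426.6 elsewhere, most of it PGC in NC. SLC6A12, AQP6 and CDH16 of the kidney list and PGC, GLP2R and ANXA13 of the gastric list were among the genes farthest below NC. These lists were chosen with earlier results of these data known, so their counts and sums are not independent support. The part of other cells in these results was not tested, and in bulk RNA fewer cells of a type and less RNA per cell cannot be told apart.

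Other markers were low or mixed, beside shares of 15.2% higher and 13.9% lower in all 3 over all tested genes. The sum of fibroblast markers was 20.34 to 29.97 CPM in NC and 10.77 to 17.95 in the active libraries, with 1 of 4 tested genes higher in all 3 and 1 lower. Of 7 endothelial and blood cell markers 1 was higher and 2 lower, on a sum of 82 to 89.71 CPM in NC and 79.32 to 164.6 elsewhere. CD68, a lysosomal protein used as a macrophage marker, made up most of the higher sums, at 58.7 to 122 CPM against 5.27 and 8.06 in NC. The sum of cholangiocyte and progenitor markers was 949.7 to 1016 CPM in NC, 732.2 to 740.9 with the siRNA, 1183 to 1220 with both RNAs and 2504 to 2541 with the mimic. In that list KRT19 and SOX4 were higher in all 3, and SOX9 and EPCAM, both epithelial progenitor genes, were lower.

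The common genes ranged from those at nearly the same level in each active group to those graded among them. With a span of less than 0.5 between the highest and lowest active group mean in log2 CPM, 111 of the 469 higher genes and 245 of the 893 lower genes were at 1 level (0.627% and 1.38% of all tested genes). The median span was 0.89 for the 469 and 0.85 for the 893, and the limit of 0.5 is a description with no test. ETNPPL, a phospholyase that breaks down phosphoethanolamine, was the extreme case with many counts, at 202 and 197 CPM in NC and 3.20 to 4.32 in all active libraries (common log2 difference -5.80, SE 0.06, adjusted p = 3.5e-12). The active groups did not differ for ETNPPL by the F test (adjusted p = 0.20), which does not show that they were alike. NPNT, the matrix protein nephronectin, had 35.1 and 36.4 CPM in NC and 2.66 to 4.45 elsewhere. RELN, the secreted protein reelin, had 1188 and 1406 CPM in NC and 396 to 501 elsewhere, with a span of 0.13. Higher genes at 1 level included ID3, an inhibitor of differentiation, with 13 and 10.3 CPM in NC and 48.8 to 66.0 elsewhere, and HCAR3, a fatty acid receptor whose near-copy HCAR2 can share its reads, with 1.4 and 0.877 CPM against 12.8 to 21. HTT-AS, an antisense transcript, cannot be told apart from its partner gene without strand information, and its 1.8 and 5.61 CPM in NC differed more than those of the active libraries.

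**Figure D4:**
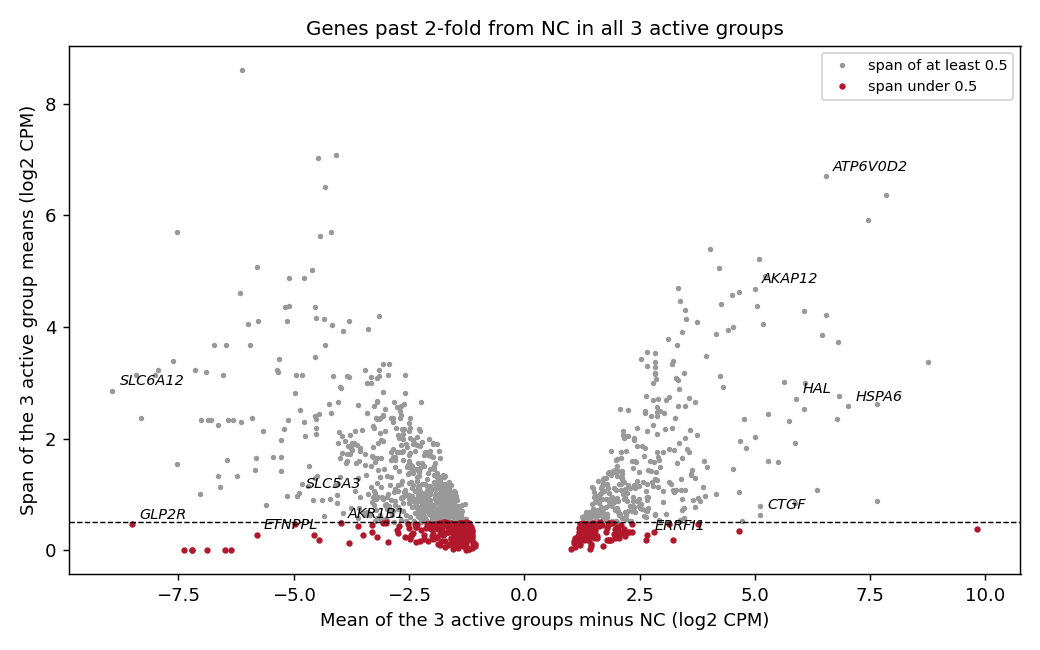
Common log2 difference from NC (horizontal) against the span between the highest and lowest active group mean (vertical, log2 CPM) of the 1362 genes at least 2-fold from NC in all 3 groups; red points below the dashed line have a span under 0.5. ETNPPL, AKR1B1 and GLP2R lie low on the left and ERRFI1 low on the right, while ATP6V0D2 and AKAP12 lie high.

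Most of the common genes did differ among the active groups. The F test over the 3 groups, which uses no NC library in its contrast, called 3216 of the 5160 (62.3%) and 775 of the 1362 past 2-fold (56.9%), against 51.9% of all tested genes. Of the 469 higher genes the active group nearest to NC was siIPO8-NC for 324, miR-552-3p for 112 and siIPO8-miR-552-3p for 33. Of the 893 lower genes it was siIPO8-NC for 525, miR-552-3p for 287 and siIPO8-miR-552-3p for 81. AKAP12, a scaffold for signalling kinases, showed a graded pattern at high level: 17.0 and 15.9 CPM in NC, 92.8 and 80 with the siRNA, 815 and 717 with both RNAs and 2202 and 2235 with the mimic. APOA5, a regulator of plasma triglycerides, showed it downward, with 93.0 and 90.9 CPM in NC, 56.4 and 56.9 with the siRNA, 12.8 and 14.2 with both RNAs and 4.85 and 4.76 with the mimic. PLAU, the urokinase, had the reverse order, at 26.1 and 30.0 CPM in NC, 10.2 and 10.1 with the mimic, 1.54 and 1.19 with both RNAs and 0.359 and 0.809 with the siRNA.

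Contrasts without NC showed which of the common genes moved again when one RNA was added to the other. Adding the mimic to importin8 siRNA lowered SLC6A12 further (log2 difference -2.85, adjusted p = 3.9e-05), as it did PGC (-1.94, adjusted p = 6.2e-07), and raised HSPA1A (1.07, adjusted p = 5.3e-05) and DDIT3 (0.84, adjusted p = 0.00011). For CTGF, SLC5A3 and AKR1B1 the same contrast gave -0.27, -0.05 and -0.10 (adjusted p = 0.27, 0.81 and 0.38). Adding importin8 siRNA to the mimic lowered SLC5A3 (-1.02, adjusted p = 8.4e-05), HSPA1A (-0.71, adjusted p = 0.00045) and ANKRD1 (-0.70, adjusted p = 0.00049). It raised HAL (2.71, adjusted p = 2.7e-07). For SLC6A12 it gave -0.11 (adjusted p = 0.89).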

How the data were processed

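Per the file headers, the deposited table gives an expected count and an FPKM for each gene and library. RSEM 1.2.8, HISAT2 2.0.4 and Bowtie2 2.2.5 are listed in the submitters' processing notes without their roles, as is the build GRCh38.p12. Expected counts, deposited by the authors, share reads among genes, so close paralogs and overlapping genes are uncertain, with strand use not given in the sources used here. FPKM, also deposited by the authors, served only to imply transcript lengths. Libraries were put in groups by their titles, and table columns were matched to them through abbreviated names. Totals were 21608563 to 22102373 expected counts per library, and 4 of these libraries recur in a smaller table with 0 differing values.

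Counts were rounded, filtered with filterByExpr, scaled by TMM and fitted over all 8 libraries in edgeR 4.0.16 (R 4.3.3) with 1 mean per group. Quasi-likelihood F tests gave each group against NC, the mean of the 3 active groups against NC and the 3 active groups among themselves. P-values were adjusted by the Benjamini-Hochberg method over all genes tested, with a threshold of 0.05. The SE is approximate. The procedure was tested on simulated counts.

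The genes named are IPO8, then the 12 per direction farthest from NC in their nearest group, 6 per direction at 1 level, 4 per direction with the widest span, genes of the series theme and up to 4 members of each of 39 lists. All needed a usual symbol, at least 100 counts on average (list members excepted) and, for the largest, separated libraries. Some list members named beside them, the genes RELN, AKAP12 and those of both motifs added later, were chosen after their values were seen, and some genes the rule named are not reported here or drawn. The comparison and lists were chosen with earlier results of these data known. Alternatives used DESeq2 1.42.0, limma 3.58.1, other scalings, filters and thresholds, and each library left out. Same-numbered replicates did not deviate together (r between -0.00335 and 0.0867), so the numbers were not used as pairs. Gene positions are those of GRCh38 in the GENCODE annotation, and sequences are from RefSeq (GRCh38.p14).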

Additional observations from a re-analysis of the deposited data

Results flagged for a closer look

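For NR0B2 and PCK1 every library of 1 active group lay below both NC libraries and every library of another lay above them, so their mean over the active groups hides opposite differences. NR0B2, the small heterodimer partner that FXR induces, was at 138 and 123 CPM in NC, 49.1 and 49.3 with the mimic, 316 and 318 with importin8 siRNA and 168 and 177 with both RNAs. Its log2 difference between miR-552-3p and siIPO8-NC, tested directly in edgeR, was -2.69 (adjusted p = 6.0e-09). PCK1, which commits carbon to glucose synthesis, was at 74.6 and 56.7 CPM in NC, 38.9 and 32.3 with the mimic, 144 and 123 with importin8 siRNA and 87.8 and 88.1 with both RNAs. Its difference between the same groups was -1.91 (adjusted p = 2.5e-05). The common contrast called neither (0.09 and 0.19, adjusted p = 0.22 for both). It passed the threshold for both genes without NC replicate 1 (adjusted p = 0.031 and 0.016).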

How the results depend on the processing

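Of 168 named genes called in all 3 groups, 148 kept that call in every one of 17 alternatives that gave a value (tests, scalings, filters, left-out libraries and a replicate block). Most of these genes were chosen for large differences in these data, so this share does not describe all 5160 genes. DESeq2 called 2170 higher and 1838 lower genes in all 3. With the 6 active libraries fitted as 1 group, so that differences among them enter the spread, the common contrast called 2330 genes higher and 2332 lower. Tested against a fold of 1.2, 1653 genes were higher in all 3. With a mean of at least 100 counts, 288 higher and 494 lower genes were past 2-fold in all 3, and 70 and 159 were at 1 level, as fewer genes were tested. A span under 0.3 gave 50 and 107 genes at 1 level, and a span under 0.7 gave 186 and 369. The replicate number as a block, which does not reflect a stated pairing, gave 2806 higher and 2489 lower genes in all 3, with 5068 of the 5160 kept, and brought SREBF1 and PCK1 past the threshold in the common contrast (adjusted p = 0.037 and 0.046). Upper-quartile scaling turned the split of all-3 calls from 52.3% higher to 45% higher and moved the median gene to -0.08. NR1H2 changed sign to -0.02 under upper-quartile scaling and with at least 100 counts (adjusted p = 0.79 and 0.85). Over all alternatives the list medians of matrix and integrin genes (-0.08 to 0.24), plasma proteins (-0.21 to 0.06) and NF-kB targets (-0.04 to 0.20) included both signs. With 1 library left out, medians ranged from -0.08 to 0.05 for DNA replication and mitosis, -1.69 to 0.95 for fibroblast markers, -0.32 to 2.50 for endothelial and blood cell markers and -0.14 to 0.31 for cholangiocyte and progenitor markers, the last being 0.12 with at least 100 counts. Ribosomal protein and hypoxia genes higher in all 3 numbered 16 and 12 with the block. The cause of these changes was not tested. With 2 libraries a group the spread rests on few degrees of freedom, and folds of genes with few counts in NC or in the active libraries are imprecise.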

Other observations

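Ranked by the shift in CPM rather than by fold, several abundant secreted proteins and enzymes were among the genes called in all 3 groups that moved most. A2M, the protease inhibitor alpha-2-macroglobulin, was the largest, at 13738 and 12574 CPM in NC, 3074 and 3536 with the mimic, 5342 and 5369 with importin8 siRNA and 4522 and 4519 with both RNAs (common log2 difference -1.61, SE 0.08, adjusted p = 6.0e-08). SERPINA3, an acute phase protease inhibitor, fell from 1756 ± 161 CPM in NC to 779 ± 59.4, 313 ± 10.6 and 597 ± 11.3 in the same order of groups. PEBP1, a phosphatidylethanolamine-binding protein, had 2334 and 2052 CPM in NC and 317 to 739 in the active libraries. GPX2, an epithelial glutathione peroxidase, had 1309 and 1191 CPM in NC and 152 to 316 elsewhere. PLOD2, a collagen lysyl hydroxylase, had 1876 and 1664 against 445 to 648.

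Among the largest shifts upward, ACSL4, which activates arachidonic acid, had 308 and 277 CPM in NC and was lower with the mimic alone (741 and 754) than in the groups with importin8 siRNA (1320 to 1649). APOA2, an HDL protein, was higher in all 3, at 887 and 793 CPM in NC and 1797 to 2649 elsewhere, whereas APOA1, the main HDL protein, was lower, at 1952 and 1746 against 635 to 1391. SAT1, which starts polyamine breakdown, rose from 196 ± 37.9 CPM in NC to between 642 ± 66.7 and 991 ± 68.6. A2M, PEBP1, APOA2 and SAT1 each had all active groups on the same side of NC with no overlap. The ranking admitted only genes at least 2-fold from NC in all 3 groups with separated libraries, so this adds no evidence.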
